A study of Mus musculus with 8 samples.

Results

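Triglyceride synthesis in the liver was followed through 10 genes: the acyltransferases Gpam, Agpat1, Agpat2, Agpat3, Mogat1, Mogat2, Dgat1 and Dgat2 and the lipins Lpin1 and Lpin2. They were taken by symbol, every probe that the array file lists under one of these names being included whether detected or not, which gave 18 of 45281 probes and 10 of 28908 symbols. Liver RNA came from 8 male C57BL/6J mice, with 1 Illumina bead array per mouse. All mice ate a high-fat diet (60% of calories) from 6 weeks of age and, after 14 weeks of it, received injections of an antisense oligonucleotide (ASO, a synthetic strand designed to base-pair with a chosen RNA and reduce it) into the peritoneum. The dose was 25 mg/kg, given 2 times weekly over 3 weeks. In 4 mice the ASO was directed against Mogat1, and in 4 it was a scrambled control, so every mouse was on the fat-rich diet and injected, and lean or uninjected mice were not analysed here. The ASO was given to the whole animal and not to 1 cell type, and the listed age, 25 weeks, is more than the schedule adds up to.

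Triglyceride is built in the liver by a pair of converging routes. In the glycerol 3-phosphate route a glycerol-3-phosphate acyltransferase adds the first fatty acid, an acylglycerolphosphate acyltransferase (AGPAT) adds the next to give phosphatidic acid, and a lipin removes the phosphate to leave diacylglycerol. Monoacylglycerol acyltransferases, among them the product of Mogat1, reach diacylglycerol directly from monoacylglycerol, and a diacylglycerol acyltransferase (DGAT) adds the last chain in both routes.

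Agpat2 was the only member that passed the test, and it fell in Mogat1 ASO livers, by 1.60-fold. Dgat1 was lower on all 4 Mogat1 ASO arrays than on any control array but did not pass after adjustment. Gpam, Agpat1, Agpat3, Lpin2 and Dgat2 differed by less than the test could call, and Lpin1 varied among mice of the same group more than almost any other gene. Mogat1 itself, and Mogat2, were not above background. Of the 10 genes, 8 had a tested probe, 1 passed as lower and 0 as higher, 4 had a difference below 0 and 4 above 0. Among all 11686 genes tested, 13.3% passed in either direction, 6.12% as lower and 7.14% as higher, so 1 call in 8 genes is near the background and is not a result about the members as a group. The median log2 difference of the 8 members was -0.085 beside -0.0036 for all genes. The median size of the difference, whatever its sign, was 0.164 beside 0.172. By probe, 1 of 10 tested member probes passed, beside 12.6% of the 16487 probes tested.

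A level is the normalized log2 signal of a probe, a difference is Mogat1 ASO minus control ASO on that scale, and the standard error (SE) and adjusted p come from limma fitted over all tested probes with Benjamini-Hochberg adjustment. Arrays differed little in brightness: the median signal was 84.3 to 112, 15788 to 16944 probes were detected at p under 0.05, and the rank correlation between arrays was 0.910 to 0.925. Arrays carry no counting depth, and precision is limited by the number of mice and, for dim probes, by signal close to background. The hepatocyte markers Apoa1, Ttr and Ahsg were bright on all arrays, and none of the 5 tested of 8 listed hepatocyte markers passed. Their differences were -0.05 for Apoa1, 0.03 for Ttr, -0.12 for Ahsg, -0.40 for Cps1 and -0.37 for the dim Tdo2.

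The targeted transcript could not be read. The 1 probe for Mogat1 gave signals of 67.0, 90.3, 80.5 and 84.1 in control livers and 78.0, 83.2, 64.8 and 88.6 in Mogat1 ASO livers, before normalization. Its detection p-value, taken here to be how often negative control beads were as bright or brighter, was never under 0.814. On the log2 scale the levels were 4.43, 4.43, 4.42 and 4.41 in controls and 4.49, 4.43, 4.36 and 4.44 after the Mogat1 ASO (exact two-sided permutation p = 0.714, n = 4 each), and the groups overlap. No fold can be given for the knockdown from these arrays. Probes for Alb, Tat and Fgb, RNAs that liver makes in quantity, were likewise not detected on any array.

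Mogat2, a second monoacylglycerol acyltransferase, known chiefly from the intestine, had 2 probes. One had detection p-values of 0.0363, 0.110, 0.169 and 0.507 in controls and 0.126, 0.0940, 0.0940 and 0.271 after the Mogat1 ASO, so it was detected on 1 of the 8 arrays. The other lay between 0.128 and 0.391 throughout. In all, 8 of the 18 probes were not tested, 7 of them detected on no array; 1 for Gpam, 2 for Lpin1 and 2 for Lpin2 were of this kind, although each of these genes had a brighter probe that was detected everywhere.

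**Figure D1:**
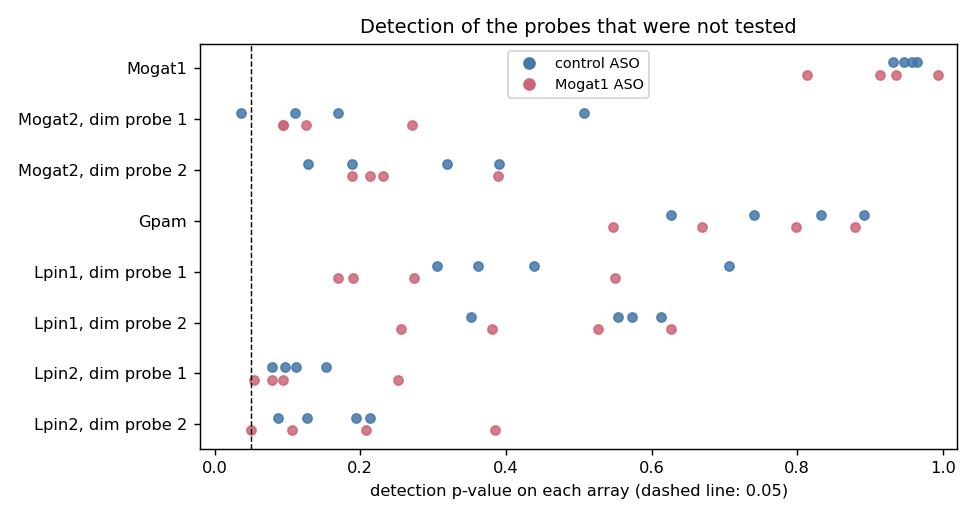
Detection p-value (horizontal axis) of the 8 member probes that were not tested, 1 point per array, blue for control ASO and red for Mogat1 ASO, with the dashed line at 0.05. The Mogat1 probe lies at 0.814 or above on every array, and a Mogat2 probe crosses the line on 1 control array at 0.0363.

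Gpam encodes the mitochondrial glycerol-3-phosphate acyltransferase, which takes the first step. Its levels were 6.85, 7.59, 7.37 and 7.59 in control livers and 7.07, 7.75, 7.38 and 7.72 in Mogat1 ASO livers. The groups overlap, and in each the mouse numbered 1 is the lowest. The difference was 0.13 (SE 0.20, 95% interval -0.29 to 0.56, adjusted p = 0.707), and it was -0.03 without control ASO replicate 1.

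Agpat2, the AGPAT whose loss causes generalized lipodystrophy in people and mice, carries the next step. The probe read 11.61, 11.59, 11.32 and 11.57 in control livers and 10.56, 11.09, 10.91 and 10.84 in Mogat1 ASO livers. Every Mogat1 ASO array lies below every control array, with replicate 1 of the ASO group the lowest and replicate 3 of the controls the nearest to the treated mice. The difference was -0.67 (SE 0.12, 95% interval -0.93 to -0.42, adjusted p = 0.0045), a 1.60-fold fall with an interval of 1.34 to 1.91. In whole liver RNA, fewer cells of a type and less RNA per cell cannot be told apart.

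A further Agpat2 probe lies outside the 18 because the array file carries it under the older name 2510002J07Rik, which RefSeq lists as a synonym of Agpat2. It read 10.93, 11.47, 11.15 and 11.21 in controls and 10.25, 10.56, 10.51 and 10.41 after the Mogat1 ASO. The groups again do not overlap, and this probe fell by 1.69-fold (difference -0.76, SE 0.12, 95% interval -1.02 to -0.50, adjusted p = 0.0029). It measures the same RNA samples on the same arrays, so it repeats the measurement and not the experiment. Over the 8 arrays the probes had a Pearson r of 0.908 and a Spearman rho of 0.857, which includes the difference between the groups. Both passed in all 19 alternative fits, with differences of -0.79 to -0.55 and of -0.87 to -0.66.

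Agpat2 is also an adipocyte gene, so adipocyte markers were read beside it. Of 7, the defining Adipoq, Retn and Plin1 were not detected on any array, 4 were tested and none passed. Lack of signal does not show that Adipoq, Retn and Plin1 RNA was absent, since Alb, Tat and Fgb were not detected either. The summed level of the list was 15242 to 27382 in controls and 16560 to 22592 after the Mogat1 ASO on the linear scale, so the ranges overlap. Car3, at log2 levels of 13.79 to 14.48, made up most of that sum, so the overlap says little about adipocyte RNA. The median difference of the 4 was 0.08. Cfd, the complement factor adipsin, differed by -1.41 (SE 0.44, adjusted p = 0.060), while Lep differed by 0.11, Adrb3 by 0.05 and Car3 by 0.15. The part of adipocyte RNA in the Agpat2 result was not tested.

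The promoter of Agpat2 is shown because it is the member that fell. The window is RefSeq's, at chr2:26604368-26604667 on the minus strand of GRCm38.p6, it runs 5′ to 3′ along the gene, and its last 50 bases belong to the transcript. Capitals mark the GC box letters GGGCGG, searched on both strands.
Agpat2 promoter: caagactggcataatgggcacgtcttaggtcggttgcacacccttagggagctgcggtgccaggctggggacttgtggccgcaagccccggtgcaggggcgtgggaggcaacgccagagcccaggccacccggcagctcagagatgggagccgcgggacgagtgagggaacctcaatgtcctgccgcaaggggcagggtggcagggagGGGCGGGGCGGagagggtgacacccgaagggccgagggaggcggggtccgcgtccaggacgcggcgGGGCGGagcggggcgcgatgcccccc
The GC box occurs 3 times, starting 42 and 37 bases before the start (these overlap) and 24 bases after it, and 72% of the window is G or C. Of 32851 promoter windows of the same length, 35.7% hold this motif, and a match is only a match of letters. The letters CCAAT, held by 37.4% of windows, are not in this one. The E-box CACGTG, held by 7.15%, is not in it either.

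The 3 named genes below had the array pattern most like Agpat2, by Pearson r over the 8 arrays among all tested genes. They were Lamp2, a lysosomal membrane protein (r 0.984, rho 0.905), Ido2, an indoleamine dioxygenase (r 0.981, rho 0.952), and Slc30a10, a manganese exporter (r 0.967, rho 0.881). All of them fell: Slc30a10 by 1.87-fold (difference -0.90, adjusted p = 9.5e-04), Ido2 by 1.53-fold (-0.61, adjusted p = 0.0165) and Lamp2 by 1.19-fold (-0.25, adjusted p = 0.0400). Without the 2 arrays farthest from the median of Agpat2, both numbered 1, r was 0.987, 0.962 and 0.978 in that order. These r values include the difference between the groups and were chosen as the highest, so they describe the arrays and carry no test. Because Agpat2 separates the groups, genes chosen this way were bound to fall with it, and their falls are not a separate result.

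The other AGPATs did not pass. Agpat1, which catalyses the same step, had levels of 5.59, 5.78, 5.68 and 5.63 in controls and 5.60, 5.69, 5.97 and 5.97 after the Mogat1 ASO. It was dim, with detection p-values of 0.0032 to 0.0224, the groups overlap, and the difference was 0.14 (SE 0.13, 95% interval -0.14 to 0.42, adjusted p = 0.529). Agpat3, an AGPAT also known to acylate lysophosphatidylinositol, had levels of 7.40, 8.02, 7.82 and 7.40 in controls and 7.25, 7.62, 7.35 and 7.23 after the Mogat1 ASO. Control replicates 2 and 3 stood above the rest and the other 2 within the range of the treated mice (difference -0.30, SE 0.16, 95% interval -0.65 to 0.05, adjusted p = 0.257).

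Whether related genes moved unequally was tested by subtracting their levels within each array, over 5 pairs. Agpat2 minus Agpat1 was 5.64 to 6.02 in controls and 4.86 to 5.40 after the Mogat1 ASO, without overlap. That is a change of -0.81 (exact two-sided permutation p = 0.0286, the smallest that 70 assignments allow, and 0.143 adjusted over the 5 pairs). Agpat2 minus Agpat3 changed by -0.38 (exact p = 0.171, adjusted p = 0.214) and Agpat1 minus Agpat3 by 0.44 (exact p = 0.0857, adjusted p = 0.214). With 4 mice a group, 1 fully separated pair cannot go below 0.143 after adjustment, so the adjusted test could not have passed Agpat2 minus Agpat1 alone and says nothing either way on whether the fall was particular to Agpat2. Leaving out Mogat1 ASO replicate 2 brought Agpat2 minus Agpat1 to -0.93 and Agpat1 minus Agpat3 to 0.56, each with an adjusted exact p of 0.0476. That array was the treated one nearest to the control mean in both contrasts. Each contrast passed in only 1 of 14 alternatives, with adjusted exact p up to 0.5. A pair separated alone could not have passed in any of them either, so these counts do not measure how firm a contrast is.

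**Figure D2:**
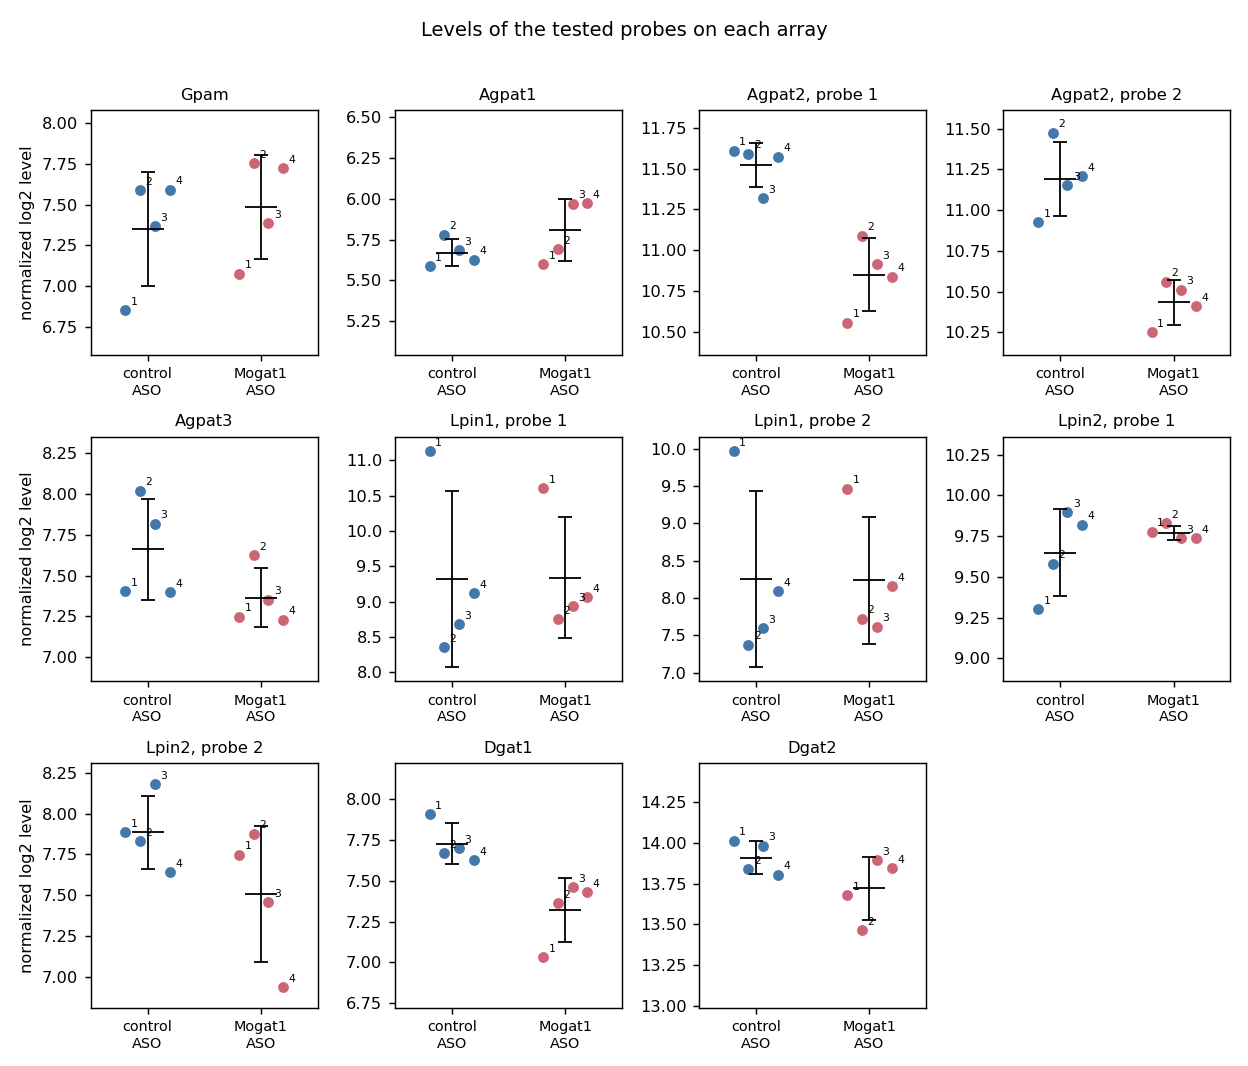
Normalized log2 level (vertical axis, its own range in each panel) of the 10 tested member probes and of the second Agpat2 probe on each array, with the replicate number beside each point and the mean and SD of the 4 mice in black. Both Agpat2 probes separate the groups, Dgat1 does so more narrowly, and both Lpin1 probes are high on replicate 1 of each group.

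Lpin1 encodes lipin 1, a phosphatidate phosphatase that also acts in the nucleus as a partner of PGC-1α and PPARα. Its brighter tested probe read 11.13, 8.35, 8.68 and 9.12 in control livers and 10.61, 8.75, 8.94 and 9.07 in Mogat1 ASO livers. Replicate 1 of each group stands far above the other mice and the groups overlap fully. The less bright probe had the same order of the high arrays, at 9.96, 7.38, 7.60 and 8.09 in controls and 9.46, 7.72, 7.61 and 8.16 after the Mogat1 ASO. Before any normalization the brighter probe gave 2197, 454, 444 and 678 in controls and 1442, 509, 509 and 745 after the Mogat1 ASO, so the same arrays were high in the signals as deposited.

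The Lpin1 difference was 0.02 (SE 0.56, 95% interval -1.21 to 1.25, adjusted p = 0.987), which leaves room for a change of 2.37-fold upward or 2.31-fold downward. Its highest and lowest arrays were 6.86-fold apart. The within-group SD, 1.07 on the log2 scale, ranked 42 from the highest of 11686 genes, above 99.6% of them. For comparison, the next most variable member was Gpam at 0.33, above 90.6% of genes, and the least variable Agpat1 at 0.15, above 35.2%. Without control ASO replicate 1 the Lpin1 difference was 0.62 (adjusted p = 0.332), without Mogat1 ASO replicate 1 it was -0.40 (adjusted p = 0.634), and without both it was 0.20 (adjusted p = 0.456). No setting gave a call, but the sign depended on these mice.

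Ppargc1a, which encodes PGC-1α, had levels of 7.28, 6.88, 6.73 and 6.92 in controls and 7.03, 6.20, 6.39 and 6.69 after the Mogat1 ASO. It too was highest on replicate 1 in each group, over a smaller range (difference -0.37, SE 0.18, adjusted p = 0.218). Gpam was lowest on those same arrays. A search for the array patterns most like Lpin1, made after its values were seen, listed Prickle2, Krtcap2, Rplp2, Atp5c1 and Arhgef6. Over the 6 arrays that remained without both numbered 1, their r with Lpin1 was 0.959, 0.408, 0.750, -0.067 and 0.546 in that order, so for most of them the likeness rested on those 2 arrays. The cause of the high arrays was not tested.

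The RefSeq promoter window of Lpin1 is shown because Lpin1 is the member that varied most between mice. It lies at chr12:16610917-16611216 on the minus strand of GRCm38.p6, 5′ to 3′ along the gene. Capitals mark the nuclear receptor motif AGGTCA and, read on the other strand as TGTTCT, the glucocorticoid receptor motif AGAACA.
Lpin1 promoter: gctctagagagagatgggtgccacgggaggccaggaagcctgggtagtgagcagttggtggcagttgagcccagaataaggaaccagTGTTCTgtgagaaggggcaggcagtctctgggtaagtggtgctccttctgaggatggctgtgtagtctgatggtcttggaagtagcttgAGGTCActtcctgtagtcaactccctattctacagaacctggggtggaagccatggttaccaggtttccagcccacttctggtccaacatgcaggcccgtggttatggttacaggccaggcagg
AGGTCA starts 74 bases before the start and is held by 16.3% of windows. The other match starts 163 bases before it and its letters are held by 19.0% of windows, so both are common, and 55.3% of this window is G or C. It holds no GGGCGG and no CCAAT. RefSeq windows were given for 7 of the 10 members, 11 in all.

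Lpin2 encodes lipin 2, a phosphatidate phosphatase abundant in liver, and its 2 tested probes disagreed. The brighter read 9.30, 9.58, 9.90 and 9.82 in controls and 9.78, 9.83, 9.74 and 9.74 after the Mogat1 ASO (difference 0.12, SE 0.12, 95% interval -0.15 to 0.39, adjusted p = 0.576). The dimmer read 7.89, 7.83, 8.18 and 7.64 in controls and 7.75, 7.88, 7.46 and 6.94 after the Mogat1 ASO (difference -0.38, SE 0.19, 95% interval -0.81 to 0.05, adjusted p = 0.232). The groups overlap on both probes, and across the 8 arrays the probes had an r of -0.03 and a rho of 0.21, so no direction can be given for Lpin2. Lpin1 minus Lpin2 changed by -0.10 (exact p = 0.943, adjusted p = 0.943).

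**Figure D3:**
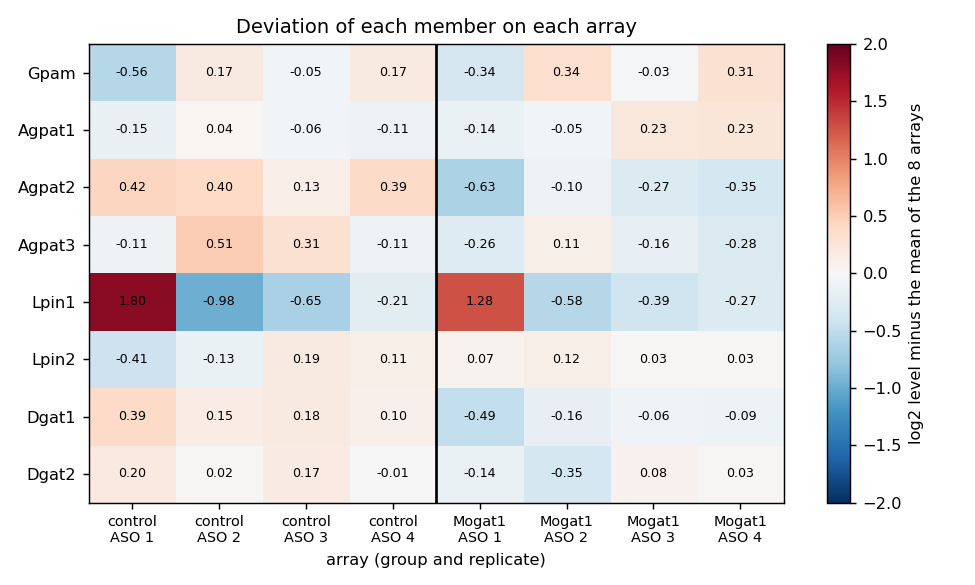
Deviation of the 8 tested members (rows, brightest tested probe) from their own mean over the 8 arrays (columns), in log2 units, with red above and blue below the mean and the value in each cell. Lpin1 is high on replicate 1 of both groups, and Agpat2 and Dgat1 change colour at the black line between the groups.

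Dgat1 and Dgat2 encode unrelated enzymes for the last step, Dgat1 in the endoplasmic reticulum and Dgat2 there and at lipid droplets. Dgat1 read 7.91, 7.67, 7.70 and 7.63 in control livers and 7.03, 7.36, 7.46 and 7.43 in Mogat1 ASO livers, without overlap. Of all tested genes, 19.1% had groups that did not overlap, and 2 of the 8 members did. Its difference, -0.41, had a 95% interval of -0.68 to -0.13, a fold of 1.10 to 1.60, and missed the threshold (adjusted p = 0.0540). Replicate 1 of the ASO group was its lowest array and replicate 1 of the controls its highest, and without both the difference was -0.25 (adjusted p = 0.125). Its probe passed in 2 of 19 alternatives (adjusted p up to 0.125). These were scaling of arrays to their 75th percentile (adjusted p = 0.0393) and a robust variance fit (adjusted p = 0.0495). That scaling also moved the median difference of all genes to -0.05. Dgat1 passed too when genes were the mean of their probes (adjusted p = 0.0455). Every fit without 1 array missed the threshold (adjusted p = 0.0727 to 0.110).

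Dgat2 was bright in every liver, at 14.01, 13.84, 13.98 and 13.81 in controls and 13.68, 13.46, 13.89 and 13.84 after the Mogat1 ASO. Mogat1 ASO replicates 3 and 4 lay within the control range and replicates 1 and 2 below it. The 95% interval of the difference was -0.41 to 0.03 (difference -0.19). Dgat1 minus Dgat2 changed by -0.22 (exact p = 0.143, adjusted p = 0.214), so unequal change of the DGATs was not shown. Without Mogat1 ASO replicate 2 it was -0.32 (adjusted exact p = 0.0476), the only 1 of 14 alternatives to pass (adjusted exact p up to 0.5). A pass needed other pairs to separate in the same fit, so this count says little about the contrast. Dgat2 belongs to the gene family of Mogat1 and Mogat2.

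**Figure D4:**
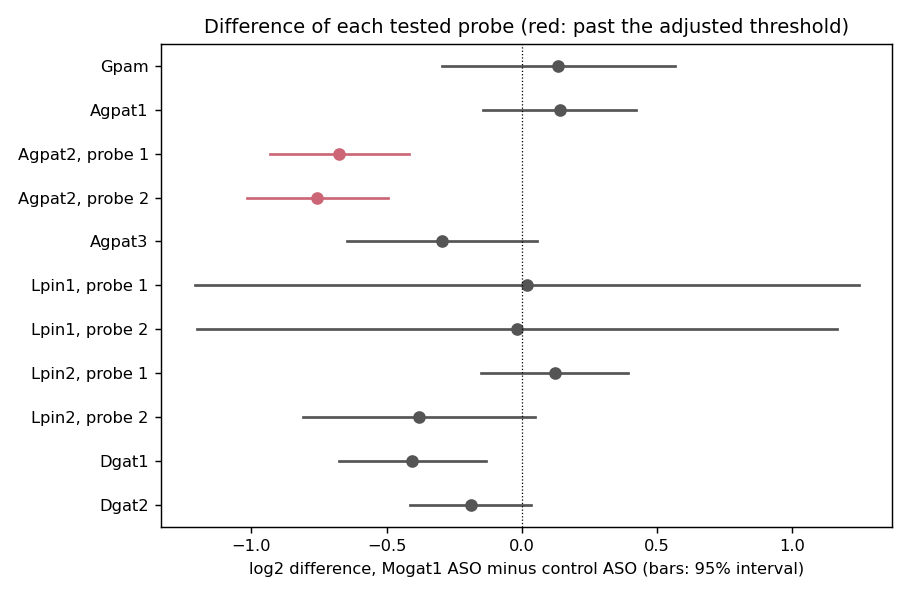
Log2 difference, Mogat1 ASO minus control ASO (horizontal axis), of each tested member probe and the second Agpat2 probe, with the 95% interval of the limma fit as a bar and red for adjusted p under 0.05. The Agpat2 intervals lie between -1.02 and -0.42, the Dgat1 interval ends at -0.13, and those of Lpin1 run past 1 on both sides of 0.

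The rest of the pathway was read through 7 lists of 68 genes, of which 48 were tested, 3 rose and 5 fell, beside 13.3% called among all genes. Without Mogat1 ASO replicate 3 or without control ASO replicate 2, the 8 calls became 3. In the list of other enzymes of the glycerol 3-phosphate route, 12 were tested, 1 rose and 0 fell, with a median difference of -0.15. Plpp2, a phosphatase that acts on phosphatidic acid, is not a lipin, and its part in triglyceride synthesis was not tested. It rose from 10.73, 10.55, 10.85 and 10.62 to 11.08, 11.05, 11.15 and 11.13, without overlap. That is 1.33-fold (difference 0.41, SE 0.09, adjusted p = 0.0105), its other probe rose too (0.50, adjusted p = 0.0240), and the call held in all 20 alternatives. Plpp3, the brightest of the list, differed by -0.15 (adjusted p = 0.267). Gpat3, which shares the first step with Gpam, was 5.28 on Mogat1 ASO replicate 1 and 6.95 to 7.66 on the other arrays.

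Of the lysophospholipid acyltransferases listed as outside the route, 4 of 11 were tested, 2 rose and 1 fell, and the median difference was 0.14. The name of this list was a choice made here, and the part of its genes in triglyceride synthesis was not tested. Lpgat1, a lysophosphatidylglycerol acyltransferase that the array lists as AW112037, read 8.68, 9.52, 9.19 and 9.46 in controls and 9.98, 10.82, 10.62 and 10.73 after the Mogat1 ASO. The groups do not overlap, and the rise was 2.50-fold (difference 1.32, SE 0.21, 95% interval 0.86 to 1.79, adjusted p = 0.0032), called in all 20 alternatives. Abhd5, listed here for a reported acyltransferase activity but best known as the activator of adipose triglyceride lipase, rose 1.31-fold (difference 0.39, SE 0.10, adjusted p = 0.0228). Lpcat3, which places polyunsaturated chains on phosphatidylcholine, fell 1.24-fold (difference -0.30, SE 0.09, adjusted p = 0.0470), while its other probe did not pass (-0.29, adjusted p = 0.374).

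Diacylglycerol kinases run against the route by turning diacylglycerol back to phosphatidic acid. Of 10 listed, 5 were tested, 0 rose and 1 fell, with a median of -0.17. Dgka fell from 8.10, 7.87, 8.09 and 7.68 to 7.33, 7.16, 7.52 and 7.44, without overlap. The fall was 1.49-fold (difference -0.57, SE 0.13, adjusted p = 0.0146), and its other probe fell too (-0.43, adjusted p = 0.0461). Without control ASO replicate 3 the adjusted p of Dgka was 0.0510. Dgkq, the brightest of the list, differed by -0.17 (adjusted p = 0.220) on the probe that stands for it, though 1 of its 3 probes passed as lower (-0.49, adjusted p = 0.0404). Dgkz differed by 0.27 (adjusted p = 0.101), and 1 of its 3 probes passed as higher (0.37, adjusted p = 0.0440).

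Supply of activated fatty acids showed 1 call among 9 tested genes, as 0 rose, 1 fell and the median was -0.10. Dbi, the acyl-CoA binding protein, fell 1.18-fold (difference -0.24, SE 0.07, adjusted p = 0.0485), and its other probe did not pass (-0.13, adjusted p = 0.346). Slc27a5, a bile acid and very long chain acyl-CoA ligase, differed by 0.02 (adjusted p = 0.933). In the DGAT2 family 1 of 3 listed genes was tested, the wax synthase gene Awat2, at -0.33 (adjusted p = 0.143).

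Lipid droplet assembly and lipodystrophy genes were all tested, 7 in number, of which 0 rose and 1 fell, and the median was 0.04. Cav1, the caveolin of caveolae, whose loss like that of Agpat2 causes lipodystrophy, fell 1.90-fold from 7.19, 6.13, 6.44 and 5.63 to 5.40, 5.25, 5.73 and 5.29 (difference -0.93, SE 0.27, adjusted p = 0.0473). The fold of this dim probe ran from 1.35 without background correction to 2.41 on the processed series values. The groups overlap by 1 control mouse, and the call was made in 7 of 20 alternatives (adjusted p = 0.0152 to 0.114) and lost on leaving out any 1 array other than control ASO replicate 4. Cav1 is also abundant in endothelium: of 6 endothelial markers, all tested, Lyve1 rose (1.28, adjusted p = 0.0012) and Stab2 fell (-0.57, adjusted p = 0.0043), beside 13.3% called among all genes. The others did not pass: Pecam1 differed by 0.37, Kdr by -0.12, Cdh5 by 0.09 and Clec4g by -0.05. The median difference of the 6 was 0.02. The summed level of these 6 was 11520 to 13199 in controls and 11384 to 12111 after the Mogat1 ASO. Clec4g, at log2 levels of 13.28 to 13.50, made up most of that sum, so it says little about the other markers. The part of endothelial RNA in the Cav1 result was not tested. Bscl2, the seipin gene and another cause of lipodystrophy, differed by 0.04 (adjusted p = 0.815). Cidec, a droplet fusion protein, ranged from 5.08 to 9.24 among the Mogat1 ASO livers alone.

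Among regulators of the members, 10 were tested, 0 rose and 1 fell, with a median of -0.10. Mlxipl, which encodes ChREBP, the carbohydrate-responsive activator of lipogenic genes, fell from 10.97, 11.28, 11.19 and 11.23 to 10.68, 10.92, 10.50 and 10.92, without overlap. It was 1.33-fold lower (difference -0.41, SE 0.11, adjusted p = 0.0363), and its other probe fell 1.46-fold (adjusted p = 0.0096). Nr1h3, the liver X receptor alpha gene, differed by 0.04 (adjusted p = 0.794). Pparg, known as an activator of Mogat1, ran from 8.76 to 10.25 in controls and from 8.85 to 10.76 after the Mogat1 ASO (difference 0.56, SE 0.39, adjusted p = 0.393).

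Other list calls also depended on single arrays or settings. Dbi passed in 9 of 20 alternatives (adjusted p = 0.0197 to 0.137) and, of the fits without 1 array, only without Mogat1 ASO replicate 1. Lpcat3 passed in 9 of 20 (adjusted p = 0.0162 to 0.169) and, of those fits, only without control ASO replicate 1. Mlxipl passed in 14 of 20 (adjusted p = 0.0117 to 0.105), losing its call without control ASO replicates 2, 3 or 4 or Mogat1 ASO replicate 3. Abhd5 passed in 15 of 20 (adjusted p = 0.0097 to 0.0754), losing it without control ASO replicate 2 or Mogat1 ASO replicates 2, 3 or 4.

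**Figure D5:**
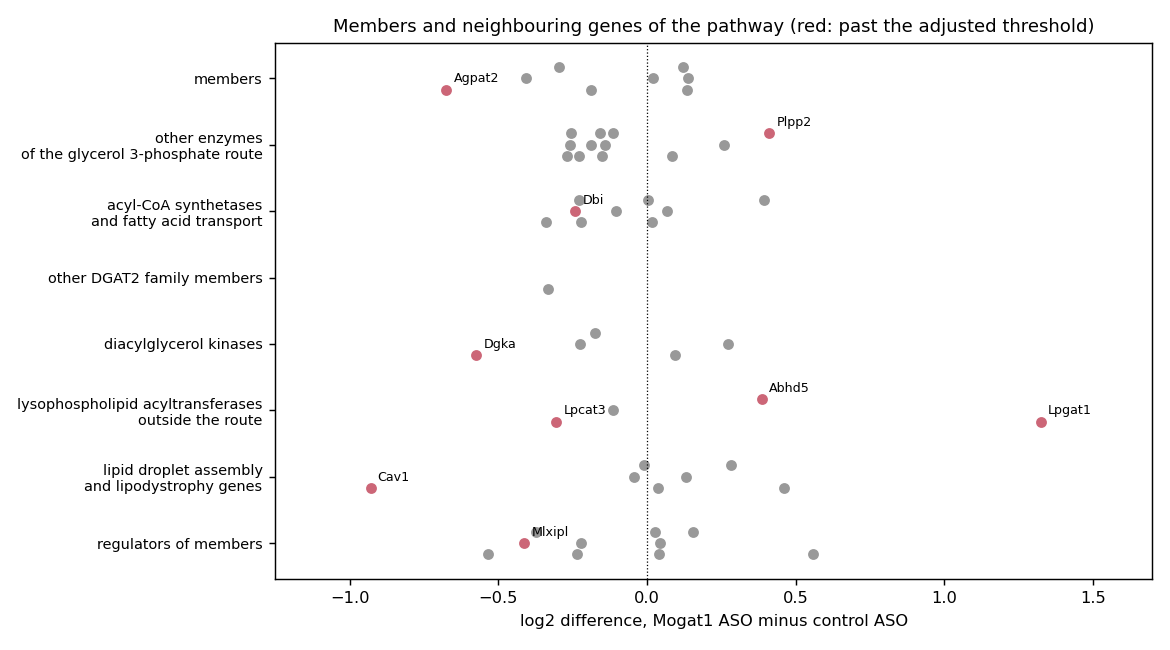
Log2 difference, Mogat1 ASO minus control ASO (horizontal axis), of each tested member and of each tested gene of the 7 lists (rows, with points spread vertically only for legibility), red and named where the adjusted p is under 0.05. Lpgat1 lies farthest to the right at 1.32 and Cav1 farthest to the left at -0.93, and most genes of each list lie within 0.5 of 0.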

How the data were processed

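For every probe and array the deposited table holds an intensity and a detection p-value, per the file headers. Software used to make it: not given in the sources used here. A processed intensity in the deposited series values (medians of 5.75 to 5.78, 38.0% to 38.1% of values below 0, so background-subtracted on a linear scale) was used as an alternative only. RNA was amplified with T7 polymerase, per the labels' protocols.

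Deposited signals were brought to log2 with neqc (limma 3.58.1 in R 4.3.3, with version 1.17.8 of data.table): normexp with negative controls inferred from detection p-values, an offset of 16 and quantile normalization. Quantile normalization gives every array the same distribution, so a shift of all genes cannot be seen. Probes with a detection p under 0.05 on 4 or more arrays were tested with lmFit and eBayes (trend), two-sided, with Benjamini-Hochberg adjustment and a threshold of 0.05. The brightest tested probe stood for a gene. Folds of dim probes shrink with a larger offset. The fit was tested on simulated data. Groups and replicate numbers came from the labels; mice are the replicates.

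Symbols were updated through RefSeq (GRCm38.p6, names only): 27740 probes were current, 8037 updated, 122 ambiguous and 9382 unmatched. Promoter windows are RefSeq's. Figures used matplotlib 3.10.9 in Python 3.11.15. The members, lists and alternatives were chosen with earlier results of these data known. Named genes were all members, list genes past the threshold (at most 4 a list, filled to 2 with the brightest) and the 3 genes most like a called member. Further genes (Gpat3, Dgkz, Cidec, Pparg, Ppargc1a, marker genes and those most like Lpin1) were named after their values were seen.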

Additional observations from a re-analysis of the deposited data

Results flagged for a closer look

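Groups of 4 mice were screened for a value far from the others of its group, and 2 of 22 groups had one, where chance gives about 1 in 20. The Agpat2 level of control ASO replicate 3 was 11.32, beside 11.57 to 11.61 in the other control livers, and it lies on the side of the Mogat1 ASO livers. This holds for 1 probe: on the other Agpat2 probe replicate 3 was 11.15, within the 10.93 to 11.47 of the other controls, and replicate 1 was the lowest. The Lpin1 level of Mogat1 ASO replicate 1 was 10.61, beside 8.75 to 9.07 in the other Mogat1 ASO livers. Control ASO replicate 1 was high for Lpin1 as well but was not singled out by this screen.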

How the results depend on the processing

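Both Agpat2 probes kept their direction and their call in every alternative run. The number of members called was 1 and became 2, with Dgat1 added, under 75th percentile scaling, a robust variance fit and the mean of a gene's probes; leaving out 1 array kept it at 1. The 8 calls of the pathway lists became 4 with no filter on dim probes, 4 without the variance trend and 5 with the mean of probes, and 3 to 9 on leaving out 1 array. The 2078 probes called became 3561 with array weights and 1149 to 3098 on leaving out 1 array, and the count moved by over 1.5 times without control ASO replicate 2 (1205) or 3 (1247) and without Mogat1 ASO replicate 3 (1149) or 4 (1287). Without both arrays numbered 1, an alternative chosen after seeing the data, it was 3359. With 1 array left out, Agpat2 minus Agpat1 changed by -0.93 to -0.76, Agpat1 minus Agpat3 by 0.34 to 0.56 and Dgat1 minus Dgat2 by -0.32 to -0.13. Under 75th percentile scaling the median difference of all genes was -0.05, and 60.8% of 1702 called genes were lower, beside 46.2% of 1549. The cause was not tested. Same-numbered arrays had correlations of deviations of 0.199, 0.0786, -0.0307 and 2.8e-05, and differently numbered arrays had -0.305 to 0.268. These values cannot settle whether same-numbered mice were paired or shared a factor. With the replicate number as a block, 1967 probes, 1 member and 7 list genes were called, Agpat2 among them and Lpcat3 no longer. Member signals near background (Mogat1, Mogat2) allow no statement on change.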
